A study of Rattus norvegicus with 6 samples.

Results

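The linear reference transcripts Rpl13a, B2m and Hsp90ab1 were followed on circRNA arrays of the rat hippocampus, from which linear RNA was to be removed before labelling. The 3 genes were chosen by name among the 62 linear-transcript probes that these arrays carry beside 14145 circRNA probes, and they were chosen with their signals, their detection in AD and sham and the difference between the groups already known. All values of that kind are therefore given here as a description and serve as no test. Each gene has 1 probe, printed as 10 spots at different places of every array. The probe of Rpl13a is CUST_5_PI421900130 (NM_173340.2), that of B2m is CUST_1_PI421900130 (NM_012512.1), and that of Hsp90ab1 is CUST_8_PI421900130 (NM_001004082.3). The array files hold no probe sequences, so the stretch of each transcript that is measured is not given here.

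The AD group consisted of 3 hippocampal samples of adult male Sprague Dawley rats. Their cerebral ventricles had been injected on both sides with oligomers of amyloid-β peptide 1–42. The sham group consisted of 3 hippocampal samples of adult male rats of this strain that served as sham controls. The peptide injection gives an acute model in animals without a transgene. The samples are numbered, and since no source used here says that each came from its own rat, the spread between arrays may in part be technical. All 6 RNA samples were treated with RNase R, labelled with Cy3 and hybridized 1 sample to 1 array. No array of untreated RNA was among the samples, so the share of linear RNA that was removed cannot be given, and whether these probes also read circular RNA was not tested. By the file headers, the AD arrays, sham 1 and sham 2 shared 1 scan date, and sham 3 had another. Over the 11612 probes tested, sham 1 had a mean Pearson correlation of 0.929 with the AD arrays and of 0.904 with the other sham arrays, so it did not stand with its own group. The differences of the 3 genes are therefore also given without sham 1 and without sham 3. Fewer cells that make a transcript and less of it per cell cannot be told apart in such bulk tissue.

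RNase R is an exonuclease that digests linear RNA from its free 3′ end, and circRNAs, which have no end, withstand it. Rpl13a is a protein of the large ribosomal subunit. B2m is β2-microglobulin, the invariant light chain of MHC class I molecules, which in brain is known above all from microglia and vessel cells. Hsp90ab1 is the constitutive cytosolic form of the chaperone Hsp90, which folds kinases and receptors and is abundant in neurons. All 3 are widely used as reference genes in quantitative PCR because most cells express them.

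The probes of linear transcripts gave signal in both groups. B2m and Hsp90ab1 were well above background on all 6 arrays, with all 30 spots of each gene in AD and all 30 in sham passing the scanner software's test. Rpl13a was well above background on the 3 AD arrays and on none of the sham arrays. In AD 10, 7 and 8 of its spots passed, array by array, which is 25 of 30, and of the 30 spots on the sham arrays 0 passed. Among all 14227 probes that are not controls, 0.991% showed this pattern of 3 AD arrays and no sham array, and among the 62 linear-transcript probes Rpl13a was the only one, which is 1.61%. Spots of 1 array are not replicates of a group. As a whole, 25, 30 and 28 of the 62 linear-transcript probes were well above background in AD and 26, 23 and 24 in sham, against 76.8% to 85.0% of the circRNA probes. Another 30 of the 62 were well above background on no array.

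**Figure D1:**
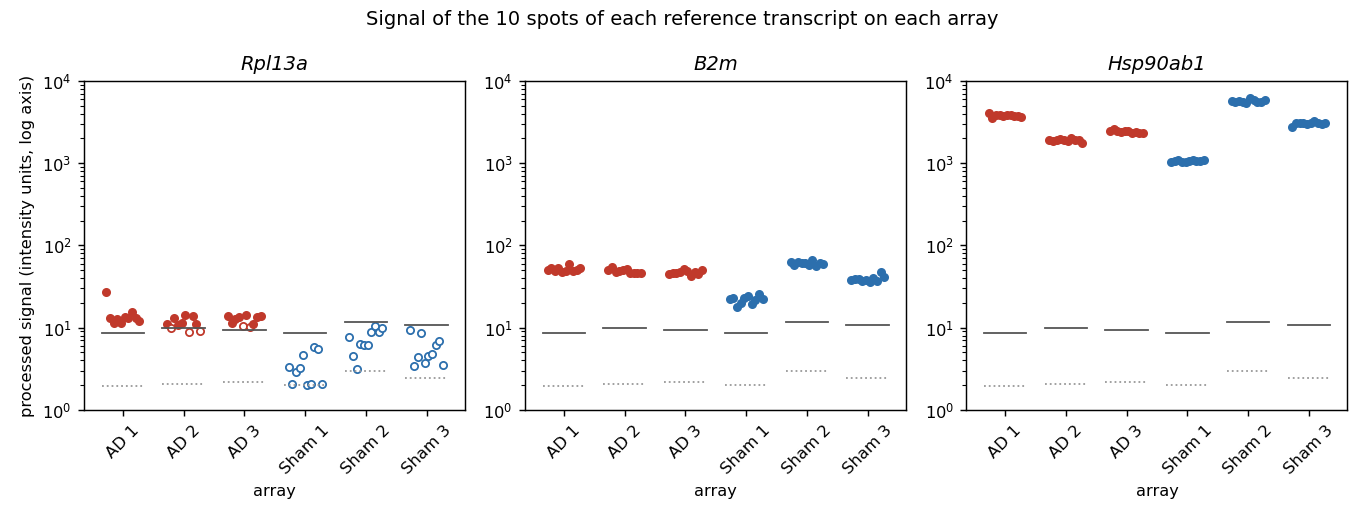
Processed signal (intensity units, log axis) of the 10 spots of Rpl13a, B2m and Hsp90ab1 on each of the 6 arrays, AD in red and sham in blue, with filled points for spots well above background, a solid line at the lowest level of any probe well above background on that array and a dotted line at the median of the negative control spots. The Rpl13a spots lie close to the solid lines, filled in 25 of 30 cases, on the AD arrays, and lie open and below them on the sham arrays, on sham 1 down to the dotted line, while the spots of B2m and Hsp90ab1 are all filled.

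The Rpl13a signal lay near the limit of detection. The geometric mean of its spots, after removal of those the software had flagged as outliers, was 12.8, 11.2 and 12.5 intensity units in AD and 3.08, 6.77 and 5.23 in sham. The AD arrays lay close together and above each sham array, of which sham 1 was the dimmest. Single spots, flagged ones included, reached from 8.93 to 27.2 in AD and from 2.03 to 10.4 in sham, so that the ranges of the spots touched even though the means of the arrays did not. After subtraction of each array's 75th percentile the log2 level was -2.66, -3.46 and -2.87 in AD and -4.72, -4.44 and -4.39 in sham. The lowest level of any probe well above background was -3.25, -3.65 and -3.36 on the sham arrays, which lies above all 3 sham readings of Rpl13a, and the difference between the groups is therefore a bound. By that bound the mean AD level was at least 1.34-fold higher. AD 2, at -3.46, itself lay below the limits of sham 1 and sham 3, so the bound does not hold for each AD array. On AD 3 an unflagged Rpl13a spot at 10.6 units failed the test, though the lowest level well above background there was 9.38. The limit for this probe may therefore be higher and the bound smaller. The bound also holds for the software's background subtraction alone. Some other ways of handling the background gave smaller differences (below 0.42 on the log2 scale), which are described with the comparison of the groups.

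The mean of the sham spots was nevertheless above most negative control spots. On each sham array the mean of Rpl13a lay above the 99th percentile of the 77 negative control spots, which was 2.37, 4.22 and 2.71 on sham 1 to sham 3. This did not hold spot by spot, since single spots on sham 1 went down to 2.03. On sham 2 the mean of 6.77 was below the highest negative control spot, at 7.53. Before any background was subtracted, the raw median signal of Rpl13a was 53.1, 52.4 and 54.0 in AD and 47.6, 60.0 and 63.2 in sham, so that sham 2 and sham 3 were brighter than every AD array. The negative control spots had raw medians of 37, 38 and 40 in AD and 42, 49 and 53.5 in sham, and there the groups did not overlap. Above these negative controls Rpl13a stood by 16.1, 14.4 and 14.0 units in AD and by 5.55, 10.9 and 9.70 in sham. The order of the groups thus appeared only after the level of the negative controls, or the background estimate of the software, had been taken off. With the local background next to each spot taken off in their place, Rpl13a was at 35.9, 34.9 and 36.6 in AD and at 31.0, 41.7 and 34.2 in sham, and the groups overlapped.

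**Figure D2:**
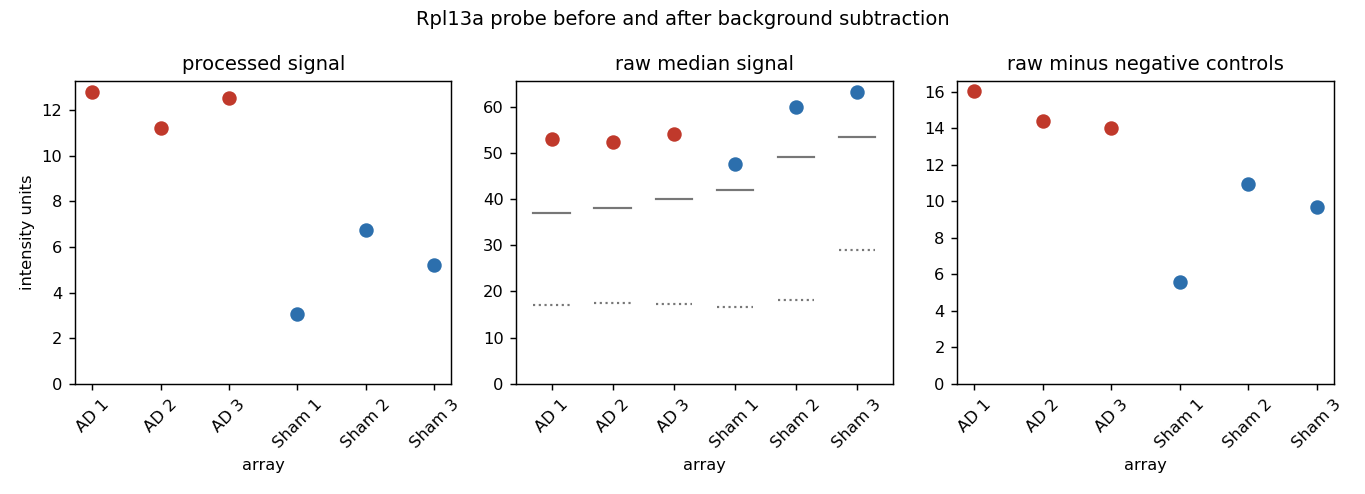
Signal of the Rpl13a probe on each array (AD red, sham blue) in intensity units as the mean of its unflagged spots, from left to right after the software's background subtraction (geometric mean), as raw median signal with the negative control median (solid) and local background (dotted), and as raw signal above the negative controls. The AD arrays lie above all sham arrays on the left and on the right, but in the middle sham 2 and sham 3, at 60.0 and 63.2, lie above the AD arrays, at 52.4 to 54.0.

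B2m was read with more certainty. Its mean was 51.3, 48.6 and 47.4 units in AD and 21.4, 60.4 and 38.3 in sham, with spots from 42.3 to 59.2 in AD and from 17.7 to 67.2 in sham. The AD arrays were nearly alike, whereas the sham arrays lay on both sides of them, sham 1 lowest and sham 2 highest. Scaled to the 75th percentile the log2 level was -0.66, -1.35 and -0.95 in AD and -1.92, -1.28 and -1.51 in sham. The groups overlapped through AD 2, which was below sham 2. AD averaged -0.99 ± 0.35 (SD, n = 3), and sham averaged -1.57 ± 0.32 (SD, n = 3).

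Hsp90ab1 had a bright signal in the RNase R treated samples, with spots from 1755 to 4032 units in AD and from 1035 to 6200 in sham and none saturated. Its mean was 3774, 1909 and 2414 units in AD and 1067, 5715 and 3082 in sham. Both the lowest and the highest array were sham, and the 2 were 5.36-fold apart. On the scaled log2 level the AD arrays stood at 5.54, 3.95 and 4.72, and the sham arrays at 3.72, 5.28 and 4.82. The groups overlapped almost completely, AD averaging 4.74 ± 0.80 (SD, n = 3) and sham 4.60 ± 0.80 (SD, n = 3).

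The spread of Hsp90ab1 lay between arrays and not between spots. The SD over the spots of 1 array was on average 0.042 on the log2 scale, and the SD between arrays of a group was 0.80, which is 19.2 times as much. For B2m these were 0.087 and 0.34, a ratio of 3.87. For Rpl13a the spots scattered by 0.37 on average, slightly more than the 0.32 between arrays, and they did so mainly on the sham arrays, with 0.60, 0.54 and 0.53 against 0.14, 0.23 and 0.16 in AD. The SD of Hsp90ab1 between arrays of a group was larger than that of 91.9% of all 11612 probes tested, whose median was 0.37, and among the 20 linear-transcript probes well above background on all arrays only Ptk2b, named here after its value was seen, had a larger one. B2m, by contrast, exceeded 41.9% of the probes.

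To set AD against sham, limma was fitted to all 11612 probes that exceeded background clearly on 3 or more of the 6 arrays, circRNAs included. Rpl13a had a fitted log2 difference of 1.52 (standard error 0.27), with 3 of 3 AD arrays above all sham arrays. That of B2m was 0.59 (standard error 0.28), and that of Hsp90ab1 was 0.13 (standard error 0.52). Of the 3 genes 1, Rpl13a, passed an adjusted p under 0.05, where 1.92% of all probes tested passed in either direction and 1.55% on the higher side in AD. Rpl13a was also the 1 gene of the 3 whose groups did not overlap, as was the case for 30.3% of all probes, and for 15.4% with AD on the higher side. It entered the fit only through the AD arrays, and the fitted difference uses sham signals under the limit of detection. Its adjusted p was 0.0483 from limma, and 0.0213 to 0.758 over the other ways of processing. Nothing is read from these counts, because the genes were chosen with them known.

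The difference of Rpl13a rested on how background was handled, and that of Hsp90ab1 on single arrays. With normexp, a background correction with an offset of 50 that makes dim probes differ less by construction, the log2 difference of Rpl13a was 0.25 (adjusted p = 0.533 from limma). On the raw signal without any subtraction, scaled to the 75th percentile, it was 0.13, and minus local background it was 0.24. The level of the negative controls stays in the first of these and in part in the second, which likewise makes dim probes differ less by construction. Without subtraction and without scaling the difference of Rpl13a turned its sign, at -0.086. Without sham 1 the log2 differences were 1.42 for Rpl13a, 0.41 for B2m and -0.31 for Hsp90ab1, so the last turned its sign. Without sham 3, which leaves the 5 arrays of 1 scan date, they were 1.58, 0.62 and 0.24. The adjusted p of Rpl13a from limma was then 0.218, and it was 0.0213 without sham 1 but at least 0.0799 without any 1 of the other arrays. Hsp90ab1 was also negative without AD 1 (-0.27), after quantile normalization (-0.40) and without scaling (-0.04).

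**Figure D3:**
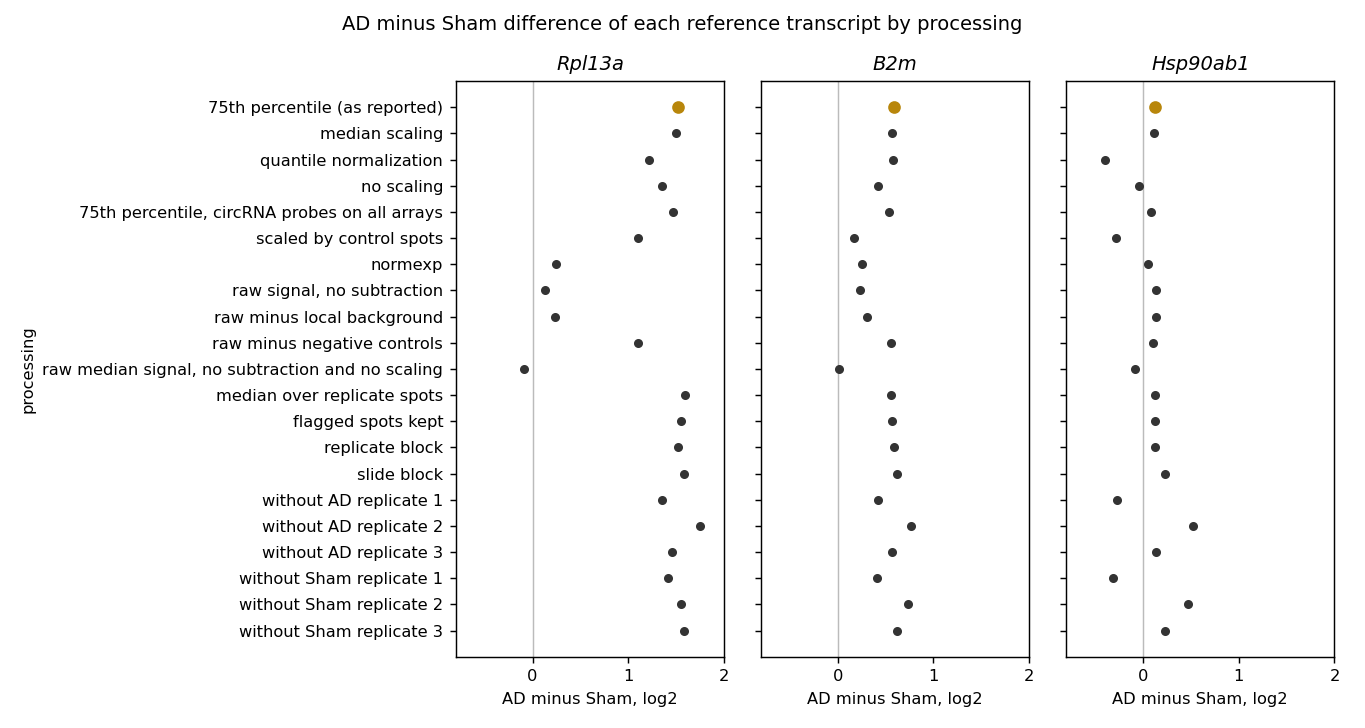
AD minus sham log2 difference (x axis) of Rpl13a, B2m and Hsp90ab1 under each way of processing (y axis), with the reported one in gold. Rpl13a falls to 0.13 to 0.25 with normexp and on the scaled raw signal with local or no background subtracted, and to -0.086 on the raw signal with neither subtraction nor scaling, and Hsp90ab1 lies on both sides of 0.

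As reference genes the 3 gave different scales. Measured against B2m on the same array, the log2 level of Rpl13a was -2.004, -2.11 and -1.92 in AD and -2.80, -3.16 and -2.87 in sham, a difference of 0.93 between groups that did not overlap. Measured against Hsp90ab1 that difference was 1.39, again without overlap. B2m against Hsp90ab1 differed by 0.46, and there the groups overlapped, with -6.20, -5.29 and -5.67 in AD and -5.64, -6.56 and -6.33 in sham. A transcript scaled by B2m would thus come out lower in AD by 0.59 than on the 75th percentile, and one scaled by the measured Rpl13a signal by 1.52. Such ratios show that 2 transcripts differed unequally, not which of them was constant, and those with Rpl13a use sham signals below the limit of detection.

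The 3 probes belong to a set of 12 custom probes of the same design, of which 10 were matched to a gene, and 7 further genes of the set are common reference genes as well. Of these, Sdha, which belongs to the succinate dehydrogenase complex, had a log2 difference of 2.14 (standard error 0.41), with levels of 1.89, 1.83 and 1.52 in AD and 0.54, -0.68 and -1.04 in sham. Pgk1, a glycolytic kinase, had one of 0.66 (standard error 0.23), with -1.47, -2.003 and -1.72 in AD and -2.54, -2.35 and -2.30 in sham. For both the groups did not overlap, and neither passed an adjusted p under 0.05. Rplp1, a stalk protein of the large ribosomal subunit and the 1 other cytosolic ribosomal transcript among the matched probes, was well above background on all 6 arrays. Its level was -2.11, -1.69 and -1.79 in AD and -2.23, -2.42 and -2.06 in sham, and the groups overlapped. Its log2 difference was 0.37 (standard error 0.23). That of Rpl13a is given only as a bound of 0.42 for the AD mean on the software's processed signal. The differences of the 2 ribosomal transcripts are therefore not set against each other.

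Of the other reference genes of the set, Actb, the cytoskeletal β-actin, had a log2 difference of -0.29 and Gusb, a lysosomal glucuronidase, one of 0.23. Ldha, the lactate dehydrogenase subunit of glycolysis, has 2 probes that disagreed in sign, with 0.26 at the probe of this set and -0.10 at the other. Hprt1, a purine salvage enzyme, was well above background on 1 AD array and on no sham array and was not tested. Of the 15 reference genes listed beside the 3, 7 had a probe, their 7 tested probes had a median log2 difference of 0.26, and of these 0 passed an adjusted p under 0.05 in limma. Over the 24 other linear-transcript probes tested the median was 0.24, with a range from -1.36 to 2.36, against 0.003 over all probes tested. This median turned to -0.17 with arrays scaled by control spots, among which eQC-41 alone differed by 2.52 without scaling. Of the 24, 16 were on the higher side in AD and 8 on the lower. Groups did not overlap for 7 of them, as was the case for 30.3% of all probes tested. Of the 24, 1 passed an adjusted p under 0.05, on the higher side, where 1.92% of all probes tested passed in either direction. B2m lay above the median of the 24 probes and Hsp90ab1 below it, while Rpl13a, undetected in sham, is not ranked among them.

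**Figure D4:**
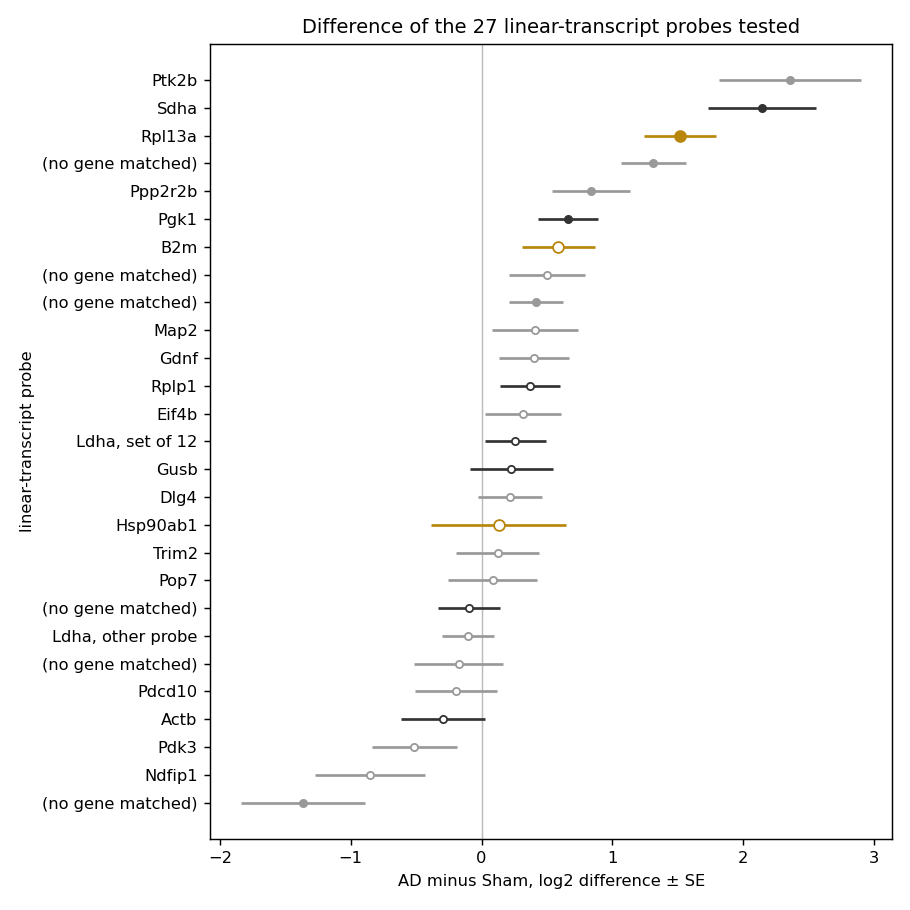
AD minus sham log2 difference ± SE from limma (x axis) of the 27 linear-transcript probes tested, with Rpl13a, B2m and Hsp90ab1 in gold, other probes of the set of 12 in black and the rest in grey. Points are filled where the 3 AD and 3 sham arrays did not overlap, which of the 3 reference transcripts was so for Rpl13a alone.

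The levels of B2m and Hsp90ab1 were also compared in their course over the 6 arrays with those of the 13 other named probes well above background on all of them. B2m was most like Pgk1 (Pearson r = 0.933 over 6 arrays), then Dlg4, a scaffold protein of the postsynaptic density (0.831), and Hsp90ab1 (0.749). Hsp90ab1 was most like B2m, then Dlg4 (0.731) and the second Ldha probe (0.680). The arrays of such a comparison share their scaling and their group, and the values are a description.

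No linear-transcript probe was matched to the genes listed for MHC class I and its loading or for the co-chaperones of Hsp90, so neither B2m nor Hsp90ab1 could be set beside the rest of its pathway. Of the cell type markers listed, only the neuronal genes Map2 and Dlg4 had a probe, both well above background on all 6 arrays, with log2 differences of 0.41 and 0.22 and groups that overlapped. Whether the share of microglia, astrocytes, vessels or blood differed was not tested, since none of their listed markers had a matched probe.

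Measures that played no part in the choice of the genes were compared between groups as well. The 459 control spots other than negative controls, 35 of them dark corner spots, had a mean log2 processed signal of 2.77 ± 0.06 in AD and 2.65 ± 0.09 in sham (SD, n = 3 each). The exact permutation test gave a two-sided p = 0.2, where 3 against 3 cannot go below 0.1. The local background around the spots of the 3 genes was 16.9, 17.5 and 17.7 units in AD and 16.1, 17.6 and 28.5 in sham (exact permutation test, two-sided p = 0.8). The high value is that of sham 3, which had the other scan date. The 58 of these control spots that were well above background on all arrays averaged 8.49 ± 0.07 in AD and 8.25 ± 0.19 in sham (SD, n = 3 each). There the AD arrays lay above all sham arrays (exact permutation test, two-sided p = 0.1, the lowest possible). Among the control probes well above background on all arrays, eQC-41 differed by 2.52 on the log2 scale without scaling. The others differed by -0.21 to 0.22. eQC-41 is printed as 6 spots, and the mean of the 58 spots differed by 0.24. That mean and the scaling by it were not computed without eQC-41, so neither is read as a shift of the control spots in general. With arrays scaled by the 58 spots, the log2 differences were 1.105 for Rpl13a, 0.17 for B2m and -0.28 for Hsp90ab1.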

How the data were processed

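The study's 6 circRNA arrays (3 AD, 3 sham; 1 colour, Cy3) were used. The deposited files hold intensities that the authors had extracted from the scans with the Agilent software Feature Extraction (11.0.1.1, per the file headers). They give for each spot a raw median signal, the local background, a processed signal after the software's own background subtraction, and flags (other values, 0 or 1). The authors also deposited a log2 table of 12132 circRNA probes, in which no linear transcript is listed and which was not used further.

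Of 15701 spots per array, 536 control spots were left out of scaling and fit. Flagged spots (11 of the 180 of the 3 genes over all arrays) were removed, log2 processed signals were averaged per probe, and each array's 75th percentile over the 14227 other probes was subtracted. A probe counted as well above background where most of its remaining spots did. Probes that did so on 3 or more of the 6 arrays entered 1 fit of limma 3.58.1 in R 4.3.3 with no block, and p-values were adjusted by Benjamini-Hochberg over all of these probes. The fit was checked on simulated arrays. A bound sets the AD mean against the lowest level well above background on each sham array, or the probe's own where higher. Accessions were matched without version to RefSeq genes of GRCr8, which named 39 of 62 probes. The array files name another build, so no coordinates are given.

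The genes, the lists and the rule for named genes were chosen with earlier results of these data known. That rule took the 3 genes, the 3 transcripts most like each gene detected on every array, and each measured gene of lists of reference, ribosomal, MHC class I, Hsp90 and cell type marker genes. Alternatives changed scaling, background, spots, model, filter, test and arrays. How precisely the groups could be compared depended on there being 3 arrays in each.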

Additional observations from a re-analysis of the deposited data

Results flagged for a closer look

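Of 59 control probes other than negative controls, which are not designed as measurements of the samples, 12 were well above background on all 3 AD arrays. For 3 of these the AD arrays all lay above the sham arrays, as was the case for 15.4% of all probes tested. Only control probes detected in AD were counted, so nothing is read from the count. The control signals lie outside the main measurement and are given for that reason. Control probe eQC-41 had scaled log2 levels of 4.56, 4.83 and 4.76 in AD and 4.12, 0.13 and 1.84 in sham, a difference of 2.69. Control probe E1A_r60_n11 was at -1.75, -1.29 and -1.59 in AD and at -2.06, -5.45 and -4.60 in sham, a difference of 2.49, and was well above background on 1 sham array. Control probe eQC-39 was at -2.54, -2.75 and -2.47 in AD and at -4.30, -5.70 and -5.51 in sham, a difference of 2.58 between measured means. As its sham signals all failed the test of background, a bound gives at least 1.78-fold more in AD. That minimum holds for the software's background subtraction alone, and other ways were not tried for this probe. All 3 were highest in sham 1 among the sham arrays, while Rpl13a was lowest there. The sources used here do not say whether control RNA was added to the samples, and the part of these signals in the results on the 3 genes was not tested.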

How the results depend on the processing

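Over 20 alternatives the log2 difference was above 0 in 19 for Rpl13a (range -0.086 to 1.75), in 20 for B2m (0.0145 to 0.77) and in 14 for Hsp90ab1 (-0.40 to 0.52). Of the 20, the scan date as a block and the fit without sham 3 gave the same values. The exception for Rpl13a was the raw signal with neither subtraction nor scaling, which gave -0.086 for Rpl13a and 0.0145 for B2m. For Rpl13a it moved by more than the spread between arrays when scaled by control spots (1.105), with normexp (0.25), on the scaled raw signal without subtraction (0.13), minus local background (0.24) or minus the negative control median (1.0997, adjusted p = 0.0619 from limma). For B2m it did so when scaled by control spots (0.17) and without subtraction (0.23). Scaling by another of the 3 genes, which only restates their ratios and is not counted among the 20, gave 0.93 for Rpl13a by B2m, and by the Rpl13a signal, undetected in sham, -0.93 for B2m and -1.39 for Hsp90ab1. These scalings, the subtraction of the negative controls and the unscaled raw signal were chosen after the values were seen. Why background handling changed the values was not tested. Leaving out 1 array gave 1.35 to 1.75, 0.41 to 0.77 and -0.31 to 0.52, in the same order of genes.

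The 1 gene past an adjusted p under 0.05 in limma became 0 with quantile normalization, no scaling and the 75th percentile of circRNA probes detected everywhere. It also became 0 with scaling by control spots, the scan date as a block, a variance trend and no filter. The same held with the negative control median subtracted and with the methods' t-test. Each of these ways had 1 at an unadjusted p under 0.05. The count was 0, with 0 at an unadjusted p, with normexp and on the raw signal minus local background or without subtraction, scaled or not. So it was with a filter on all 6 arrays, which leaves Rpl13a out. Leaving out 1 array gave 0 to 1, with 1 or 2 at an unadjusted p, and the call stood only without sham 1. With the replicate number as a block it was 0 (1 at an unadjusted p), and the differences stayed at 1.52, 0.59 and 0.13. Deviations of arrays with the same number correlated at 0.171, 0.189 and 0.0259, and the third is under 0.1, so no pairing was assumed.

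The median of the other linear-transcript probes was 0.14 to 0.37 with 1 array left out and turned to -0.17 when scaled by control spots, eQC-41 among them. Rpl13a passed on 1 AD array if every spot had to, and on 3 sham arrays if its mean had only to exceed the 95th or the 99th percentile (3 again) of the negative controls. With 1 array left out the control spots other than negative controls differed by 0.069 to 0.162 and the local background by -5.71 to 0.49. The dimness of Rpl13a limits what its arrays can show.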
